A study of Mus musculus with 6 samples.

Results

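Neutrophils store their antimicrobial proteins in granules that are filled at successive stages of maturation, and the genes described here are 10 that belong to the later stages: Ltf, Camp, Ngp, Lcn2, Chil3, Mmp8, Mmp9, S100a8, S100a9 and Cybb. They were taken by symbol, through the NCBI gene IDs of the deposited table, from 27179 genes measured, and all 10 were found. The list was drawn up with the difference between the 2 groups already known, so the levels and fold changes of these genes are a description, and nothing here is a test of them.

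The RNA came from LT-HSC, the long-term stem cells of the bone marrow that sustain blood formation, sorted as Lin-Sca-1+c-Kit+CD48-CD150+. Both groups were C57BL/6 mice of 8 to 12 weeks with 2 conditional alleles of Prdm16, a gene for a zinc-finger regulator of transcription, and both received pIpC 5 times, every other day, with cells taken 5 weeks later. The Cko group (Prdm16-Mx1-Cko/Cko; Tg/+) also carried the Mx1-Cre transgene, whose promoter responds to interferon in many cell types, and the WT group (Prdm16-Mx1-Cko/Cko; +/+) did not. Marrow of 5 mice was pooled per genotype and sorted into 3 technical replicates, so each group is 1 pool in 3 portions and the spread and p-values given below measure differences between portions, not animals. Deletion and Cre transgene were present together in the Cko group and cannot be told apart.

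Secondary granules hold iron-binding and antimicrobial proteins and are made in myelocytes and metamyelocytes. Tertiary granules are made later and are rich in gelatinase. S100A8 and S100A9 form calprotectin, a metal-binding complex that fills the cytosol of neutrophils and is not a granule protein. In mice the factor C/EBP epsilon is needed for secondary granule genes to be expressed.

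Reads counted in genes, as recovered from the deposited values, summed to 36810194 to 43725862 per library in Cko and 36747729 to 43743795 in WT. Prdm16 had 323, 388 and 643 reads in the Cko libraries and 1630, 1860 and 1381 in the WT libraries, with a log2 fold change of -1.93 (SE 0.27, limma adjusted p = 0.00829). The table gives 1 value per gene and none per exon. The Prdm16 call was lost without Cko replicate 2 (-1.82, adjusted p = 0.0508 and 0.0650 for the 2 gene sets explained next). Each library was left out once with the low-value filter repeated and once with the genes tested in all 6 libraries, and a call is given below as lost where it ended in at least 1 of these. The sort was checked on 17 LT-HSC genes, whose summed level was 3882 to 4178 CPM (reads scaled to library size) in Cko and 3873 to 4049 CPM in WT. Slamf1, which encodes CD150, averaged 84.1 CPM in Cko and 80.8 CPM in WT. Cd48, whose product the gate excludes, averaged 12.3 CPM in Cko and 6.62 CPM in WT. Limma called 0.699% of all 13018 tested genes, and 1342 of them had an unadjusted p under 0.05. Of the 17 LT-HSC genes 0 were called by limma and 0 by voom, and 5 had an unadjusted p under 0.05. Flt3, a receptor of multipotent progenitors that stands in that list, had 47.8, 58.9 and 45.6 CPM in Cko and 29.3, 27.5 and 32.9 CPM in WT and was not called (adjusted p = 0.0985).

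Upstream sequence is shown for the 5 members that were called under all 22 alternative settings, since these were higher in Cko in every setting and 3 of them lie on 1 stretch of chromosome 9. Each line holds the 250 bases before the RefSeq start (GRCm38.p6, the assembly mm10 names), 5′ to 3′ on the strand of the gene. Capitals mark the letters of the C/EBP motif TTGCNNAA, of the PU.1 motif GAGGAAGT or of the promoter motif known as the TATA box, TATAAA, each searched on both strands.
Ngp, chr9:110419558-110419807, + strand: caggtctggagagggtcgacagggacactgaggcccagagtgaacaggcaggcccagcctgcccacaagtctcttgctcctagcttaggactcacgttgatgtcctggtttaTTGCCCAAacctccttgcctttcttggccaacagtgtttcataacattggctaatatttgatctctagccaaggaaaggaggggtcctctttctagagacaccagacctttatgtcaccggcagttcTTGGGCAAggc
Ltf, chr9:111019042-111019291, + strand: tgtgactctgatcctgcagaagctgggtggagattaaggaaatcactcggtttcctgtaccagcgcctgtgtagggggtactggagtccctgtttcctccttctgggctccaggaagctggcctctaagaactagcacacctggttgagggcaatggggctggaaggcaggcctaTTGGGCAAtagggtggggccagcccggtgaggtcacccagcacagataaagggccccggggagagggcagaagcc
Camp, chr9:109849457-109849706, - strand: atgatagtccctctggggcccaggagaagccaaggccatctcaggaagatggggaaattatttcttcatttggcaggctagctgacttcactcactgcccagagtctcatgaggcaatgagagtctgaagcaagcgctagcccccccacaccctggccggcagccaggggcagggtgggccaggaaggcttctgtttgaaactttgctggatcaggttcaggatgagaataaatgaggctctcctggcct
S100a8, chr3:90668821-90669070, + strand: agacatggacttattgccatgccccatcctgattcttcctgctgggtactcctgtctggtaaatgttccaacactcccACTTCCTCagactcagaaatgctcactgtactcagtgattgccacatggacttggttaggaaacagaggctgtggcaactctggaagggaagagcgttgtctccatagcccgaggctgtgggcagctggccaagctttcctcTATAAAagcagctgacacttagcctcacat
S100a9, chr3:90695722-90695971, - strand: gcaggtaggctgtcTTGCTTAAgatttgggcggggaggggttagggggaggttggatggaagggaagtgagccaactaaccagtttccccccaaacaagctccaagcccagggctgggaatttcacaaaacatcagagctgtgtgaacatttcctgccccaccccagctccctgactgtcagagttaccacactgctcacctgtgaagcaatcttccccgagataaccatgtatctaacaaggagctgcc

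Ngp held the C/EBP letters at 2 places, starting 138 and 11 bases before the gene start, and Ltf at 1 place, starting 75 bases before it. S100a9 had a match far upstream, starting 236 bases before the start. S100a8 had a TATA box starting 30 bases before the start and a PU.1 match, and the Camp window held none of the 3 motifs. Windows of 250 bases before and 50 after the start were matched for 9 of the 10 members, and no 2 matches overlapped. The C/EBP letters were in 5 of these 9 windows (Lcn2, S100a9, Mmp8, Ngp and Ltf) and in 10.8% of all 32851 windows. The PU.1 letters were in 2 (S100a8 and Mmp8) and in 3.20% of all, and the letters TATAAA were in 4 (S100a8, S100a9, Chil3 and Mmp8) and in 13.6% of all. In S100a9, Chil3 and Mmp8 these letters lay at the gene start itself, from position 1, -3 and -3, with the Mmp8 match on the opposite strand, and not upstream as in S100a8. A match is a run of letters and not a measured binding site.

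Calprotectin transcripts were the most abundant of the group. S100a9 had 152, 165 and 223 CPM in the Cko libraries and 24.7, 29.1 and 21.6 CPM in the WT libraries. S100a8 had 121, 151 and 201 CPM in Cko and 17.5, 24.3 and 21.8 CPM in WT. For both subunits the lowest Cko library stood far above the highest WT library, and Cko replicate 3 was highest. The log2 fold changes were 2.83 (SE 0.18) for S100a9 and 2.88 (SE 0.20) for S100a8.

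Among the secondary granule genes, Ngp, which encodes a cathelicidin-related protein of neutrophil granules, was nearly as abundant. It had 125, 157 and 159.7 CPM in Cko and 17.3, 25.2 and 23.1 CPM in WT, a log2 fold change of 2.76 (SE 0.18). Camp, the precursor of the antimicrobial peptide cathelicidin, had 36.0, 40.3 and 43.8 CPM in Cko and 6.24, 5.53 and 5.69 CPM in WT, a log2 fold change of 2.78 (SE 0.22). The Camp values were close together within each group, with a coefficient of variation of 9.66% in Cko and 6.34% in WT. Ltf, the iron-binding protein lactoferrin, had 59.5, 54.3 and 45.7 CPM in Cko and 15.5, 11.7 and 12.8 CPM in WT. Its log2 fold change of 2.00 (SE 0.20) was the smallest of the 10, and Cko replicate 3, the highest for calprotectin, was the lowest of the Cko libraries for Ltf.

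Lcn2, a lipocalin that binds bacterial siderophores, had 35.2, 35.9 and 37.8 CPM in Cko and 4.33, 7.38 and 12.2 CPM in WT. Chil3, a chitinase-like lectin also known as Ym1, had 31.0, 30.6 and 36.2 CPM in Cko and 10.9, 3.61 and 5.09 CPM in WT. Both were even across the Cko portions and uneven across the WT portions, and the high WT library was replicate 3 for Lcn2 and replicate 1 for Chil3. The log2 fold changes were 2.31 (SE 0.34) for Lcn2 and 2.47 (SE 0.37) for Chil3. Leaving out any 1 Cko library ended the call of both genes while the fold changes stayed at 2.28 to 2.33 for Lcn2 and 2.39 to 2.52 for Chil3, and the Chil3 call also ended without WT replicate 3 (2.37). Chil4, the close copy of Chil3 with which reads could be shared, had 1, 0 and 0 reads in Cko and 0 in each WT library.

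The metalloproteinases and the oxidase subunit were the least abundant per exon length in both groups. Mmp8, the neutrophil collagenase, had 70, 275 and 561 reads in Cko and 0 reads in each WT library. Its level was 1.89, 6.41 and 12.8 CPM in Cko, at least 94-fold higher as a mean than the WT floor of 0.0748 CPM, which stands for 3 reads per library. Mmp8 passed the low-value filter through the Cko libraries alone, and the 3 Cko portions themselves spanned a wide range, with Cko replicate 1 lowest. Mmp9, the gelatinase of tertiary granules, had 11.2, 7.99 and 7.46 CPM in Cko and 0.569, 0 and 1.26 CPM in WT, and here Cko replicate 1 was the highest. Cybb, the membrane-bound catalytic subunit of the phagocyte NADPH oxidase, had 12.3, 25.3 and 21.6 CPM in Cko and 7.89, 0 and 1.51 CPM in WT. WT replicate 2 had 0 reads of Mmp9, Mmp8 and Cybb, so the fitted log2 fold changes of Mmp9 (5.34, SE 1.46) and Cybb (5.11, SE 1.81) depend on the offset of 0.5 reads. Without WT replicate 2 they were 3.35 (SE 0.57) and 2.44 (SE 0.63), and Mmp9 was then called. Mmp8 was called without WT replicate 1, and Mmp8 and Cybb each overlap a long noncoding RNA gene in RefSeq.

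**Figure D1:**
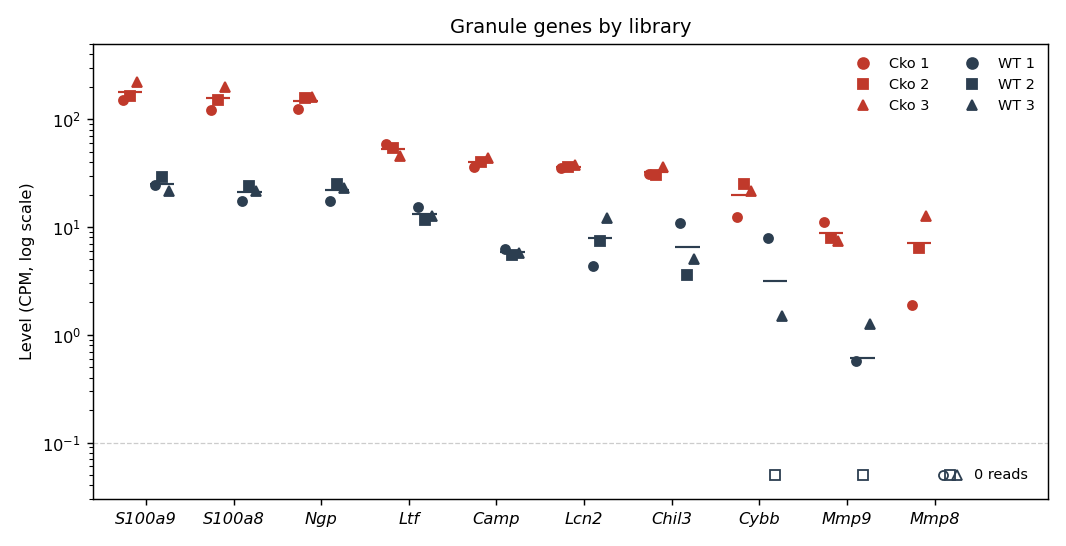
Level of the 10 granule genes in CPM (log axis) in each library, Cko left of WT for each gene, with symbols for the replicate, lines for group means and open symbols for libraries with 0 reads. For each gene the 3 Cko libraries lie above the 3 WT libraries, S100a9 at 152 to 223 CPM in Cko and 21.6 to 29.1 CPM in WT, and Mmp8 has no reads in WT.

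In a limma fit over 13018 genes, 7 of the 10 members were called higher in Cko (adjusted p below 0.05), where 0.407% of all tested genes were, and 0 were called lower, where 0.292% were (0.699% in either direction). The 3 not called were Mmp8, Mmp9 and Cybb. In all 10 the Cko libraries lay above the WT libraries, as in 8.52% of tested genes, and in 0 they lay below, as in 8.01%. The median log2 fold change was 2.80 over the 10 and 0.003 over all tested genes. As the list was chosen on this contrast, these shares are given as counts only. The call of 5 members, S100a8, S100a9, Ngp, Camp and Ltf, was kept in each of the 22 alternative fits.

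Summed over the 10 genes, the level was 586, 674 and 789 CPM in the Cko libraries and 105, 107 and 105 CPM in the WT libraries. The WT sum varied little (106 ± 1.01 CPM, SD, n = 3) although single members varied widely there, and the Cko sum averaged 683 ± 102 CPM (SD, n = 3). The coefficient of variation ran from 3.72% (Lcn2) to 34.1% (Cybb) in Cko, with Mmp8 at 78.1%. In WT it ran from 6.34% (Camp) to 134% (Cybb), with no value for Mmp8. Tested genes with a mean between 3 and 300 CPM had a median of 13.8% in Cko and 13.9% in WT. In bulk RNA, more cells of one type and more RNA per cell cannot be told apart.

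Scaled per exon length, the order of the levels was nearly the same in both groups. S100a9 led with 345 ± 71.9 RPKM (CPM per kb of exon) in Cko and 48.1 ± 7.27 RPKM in WT, followed by S100a8 (227 ± 58.4 in Cko and 30.5 ± 4.93 RPKM in WT). Ngp came next at 121 ± 15.7 RPKM in Cko and 17.9 ± 3.33 RPKM in WT, and Camp after it at 52.8 ± 5.10 RPKM in Cko and 7.68 ± 0.487 RPKM in WT (SD, n = 3 each). The ranges of these 4 neighbours did not overlap in either group. Chil3, Ltf and Lcn2 followed at means of 20.0, 15.4 and 13.8 RPKM in Cko, and in WT Chil3 ran from 2.21 to 6.67, Ltf from 3.38 to 4.50 and Lcn2 from 1.65 to 4.64 RPKM. In WT these 3 could not be ordered beyond their spread, and in Cko neither could Ltf and Lcn2. Cybb, Mmp8 and Mmp9 were lowest in Cko at 3.40, 2.91 and 2.51 RPKM, with overlapping ranges, and in WT Cybb and Mmp9 were at 0.540 and 0.172 RPKM.

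Ratios between members within a library do not depend on library size, and S100a9, the most abundant, served as the common denominator. S100a8 reads were 79.2% to 92.0% of S100a9 reads in Cko and 71.0% to 101% in WT. Ngp reads were 71.7% to 95.5% of S100a9 reads in Cko and 70.2% to 107% in WT. Camp reads were 19.7% to 24.5% in Cko and 19.0% to 26.4% in WT. For these 3 genes the range of the Cko libraries lay inside that of the WT libraries, and the mean log2 ratio shifted by 0.05, -0.07 and -0.05 between the groups (Cko minus WT).

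For Ltf the ranges did not overlap. Its reads were 20.5% to 39.1% of S100a9 reads in Cko and 40.1% to 63.0% in WT, a shift of the mean log2 ratio of -0.83, from group means of -1.75 ± 0.48 in Cko and -0.91 ± 0.36 in WT (SD, n = 3 each). It was 1 of 6 ratios, and no share of separated ratios over other genes was computed, so nothing is read from this separation. The shares of 8.52% and 8.01% given above are for levels of single genes and not for ratios. The nearest libraries of the 2 groups were 1 percentage point apart at 39.1% and 40.1%. The shift was -1.04 to -0.57 when each library was left out in turn. Lcn2 reads were 17.0% to 23.1% of S100a9 reads in Cko and 17.6% to 56.5% in WT, and Chil3 reads 16.3% to 20.3% in Cko and 12.4% to 44.1% in WT. The wide WT ranges of these 2 rested on WT replicate 3 for Lcn2 and WT replicate 1 for Chil3. Cybb reads were 8.06%, 15.4% and 9.68% of S100a9 reads in Cko and 32.0%, 0% and 7.02% in WT, and Mmp9 reads 7.36%, 4.85% and 3.35% in Cko and 2.31%, 0% and 5.85% in WT. Mmp8 reads were 1.24%, 3.89% and 5.77% in Cko and 0% in each WT library.

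**Figure D2:**
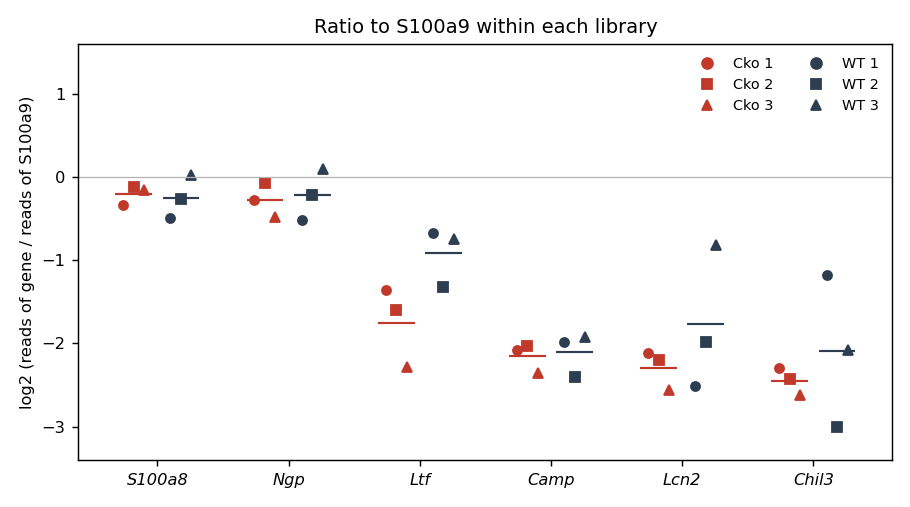
log2 ratio of the reads of 6 granule genes to the reads of S100a9 in the same library, Cko left of WT, with lines for group means; 0 means as many reads as S100a9. S100a8, Ngp and Camp overlap between the groups with mean shifts of 0.05, -0.07 and -0.05, and Ltf has a mean shift of -0.83 with no overlap.

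Other neutrophil granule genes were taken from a list. Of 43 listed genes outside the 10, 42 were in the table and 24 were tested. Of the 24, 4 rose and 0 fell (limma, adjusted p below 0.05), with a median log2 fold change of 0.40. Of all tested genes 0.407% rose and 0.292% fell. Retnlg, a resistin-like secreted protein of neutrophils, had 20.6, 29.8 and 39.7 CPM in Cko and 5.22, 3.42 and 2.71 CPM in WT. It rose by 2.99 on the log2 scale (SE 0.35, adjusted p = 0.00300). Hp, haptoglobin, averaged 12.5 CPM in Cko and 0.668 CPM in WT and rose by 4.24 (SE 0.52, adjusted p = 0.00360). Hp was below 1 CPM in every WT library and passed the low-value filter through the Cko libraries alone. Lyz2, lysozyme of myeloid cells, averaged 763 CPM in Cko and 560.3 CPM in WT and rose by 0.44 (SE 0.06, adjusted p = 0.00818). Itgb2, the beta chain of the leukocyte integrins, averaged 122 CPM in Cko and 62.2 CPM in WT and rose by 0.98 (SE 0.15, adjusted p = 0.0165). Cd63, a tetraspanin of granule membranes and the most abundant of those not called, averaged 350.3 CPM in Cko and 415 CPM in WT (log2 fold change -0.25, SE 0.08, adjusted p = 0.288). Among the others not called, Cd177 averaged 8.76 CPM in Cko and 0.505 CPM in WT, and Slpi 12.2 CPM in Cko and 4.45 CPM in WT. Pglyrp1, also not called, averaged 12.1 CPM in Cko and 16.1 CPM in WT.

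The Itgb2 call was lost without Cko replicate 1, 2 or 3 or WT replicate 2 (adjusted p = 0.0549 to 0.114) and with a replicate block (0.0576). The Lyz2 call was lost without Cko replicate 2 or 3 (adjusted p = 0.0502 and 0.0594), and so was that of Hp (adjusted p = 0.0648 and 0.0586). Retnlg kept its call in each alternative. The genes of the Stfa family are near-identical copies among which reads can be split, and Stfa1, Stfa2 and Stfa3 had 0 reads in every library.

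Primary granule genes belong to the earlier promyelocyte stage, and their WT levels were mixed. Mpo, myeloperoxidase, had 250.2, 237 and 274 CPM in Cko and 3.64, 0 and 2.20 CPM in WT, and Elane, neutrophil elastase, had 69.0, 70.6 and 60.3 CPM in Cko and 0, 0 and 0.436 CPM in WT. Prtn3, proteinase 3, averaged 211 CPM in Cko and 209 CPM in WT. Srgn, the proteoglycan core protein of granules, averaged 1036 CPM in Cko and 1147 CPM in WT, and Ctsc, which activates granule proteases, averaged 111 CPM in Cko and 115 CPM in WT. Of 9 primary granule genes 0 fell and 3 rose, Mpo, Elane and Ctsg (cathepsin G), where 0.407% of all tested genes rose. The limma adjusted p of the 3 was 0.0427, 0.00300 and 0.00215. Elane and Ctsg were below 1 CPM in every WT library and passed the low-value filter through the Cko libraries alone. The median log2 fold change of the 9 was 4.77, and 6 of the 9 had an unadjusted p under 0.05. That median is the fitted value of Cst7, which had 1, 34 and 56 reads in the WT libraries. As it depends on a WT library near 0 reads, it is not set against the 2.80 of the members. Cst7 averaged 9.73 CPM in Cko and 0.744 CPM in WT and was not called. Ms4a3, also not called, averaged 14.8 CPM in Cko and 2.34 CPM in WT. The Mpo call was lost without Cko replicate 1, 2 or 3 or WT replicate 3 (adjusted p = 0.0514 to 0.199), that of Ctsg without Cko replicate 1, 2 or 3 (0.0596 to 0.0713) and that of Elane without Cko replicate 2 (0.0573).

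A list of mature neutrophil genes, not all of them for surface proteins or particular to neutrophils, gave mixed values. Of 16 listed, 10 were tested, 1 rose and 1 fell, and the median log2 fold change was 0.15. Of all tested genes 0.407% rose and 0.292% fell. Ly6g, the surface marker that defines mature mouse neutrophils, had 0, 1.05 and 0.320 CPM in Cko and 0.544, 0.651 and 0.275 CPM in WT. That is too low for it to be tested. Cxcr2, the chemokine receptor of neutrophils, had 2.41, 1.02 and 0 CPM in Cko and 6.29, 0.814 and 0.825 CPM in WT. Csf3r, the receptor of granulocyte colony-stimulating factor, averaged 101 CPM in Cko and 87.8 CPM in WT (log2 fold change 0.19, SE 0.12, adjusted p = 0.616). The gene that rose was Ly6c2, a surface antigen of monocytes and other myeloid cells, with 38.7, 41.8 and 43.9 CPM in Cko and 1.04, 0.624 and 0.390 CPM in WT (log2 fold change 6.00, SE 0.43, adjusted p = 0.000170). The gene that fell was Padi4, the deiminase that citrullinates histones in neutrophils, with 55.0 CPM as a mean in Cko and 100.5 CPM in WT (log2 fold change -0.87, SE 0.12, adjusted p = 0.00791). The Padi4 call was lost without Cko replicate 2 or 3 or WT replicate 3 (adjusted p = 0.0509 to 0.0573).

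Cybb works as a complex, and neither Cybb nor its tested partners were called. Of 14 listed oxidase genes 10 were tested, 0 were called by limma and 0 by voom, and 1 had an unadjusted p under 0.05. Limma called 0.699% of all tested genes, so 0 of 10 is near that share. Of the 10, 9 had a positive log2 fold change, with a median of 0.13. Cyba, the subunit that pairs with Cybb in the membrane, averaged 130.2 CPM in Cko and 116 CPM in WT (log2 fold change 0.16, SE 0.11). Ncf4, a cytosolic subunit, averaged 30.2 CPM in Cko and 28.4 CPM in WT. Ncf1, the organizer subunit, averaged 22.6 CPM in Cko and 11.5 CPM in WT (log2 fold change 0.97, SE 0.22, adjusted p = 0.107). Rac2, the small GTPase of the complex, averaged 547 CPM in Cko and 545 CPM in WT.

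Of receptors, inhibitors and relatives of the member proteins 0 were called, where limma called 0.699% of all tested genes. Of 13 tested receptors, inhibitors and partners limma and voom each called 0, and 3 had an unadjusted p under 0.05. Timp1, an inhibitor of MMP9, had 0 reads in every library, and Timp2 averaged 62.9 CPM in Cko and 100.2 CPM in WT (log2 fold change -0.68, SE 0.18, adjusted p = 0.197). Slc22a17, a receptor of lipocalin 2, averaged 40.7 CPM in Cko and 38.6 CPM in WT. Of 8 tested members of the MMP family other than Mmp8 and Mmp9, both tools called 0 and 0 had an unadjusted p under 0.05, and Mmp14, the most abundant, averaged 18.6 CPM in Cko and 23.0 CPM in WT. Of 3 tested relatives among chitinase-like, lipocalin and transferrin genes, both tools called 0, with 0 at an unadjusted p under 0.05.

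Transcription factors linked to granulocyte development were also listed. Of 12 tested, 1 rose and 0 fell, with a median log2 fold change of 0.12, where 0.407% of all tested genes rose and 0.292% fell. Of the 12, 9 had a positive log2 fold change and 4 an unadjusted limma p under 0.05. Cebpe, the gene of C/EBP epsilon, had 1.87, 0.932 and 0.526 CPM in Cko and 0, 0 and 0.0229 CPM in WT and did not reach the level needed for testing. Gfi1, a repressor needed for neutrophil development, averaged 14.6 CPM in Cko and 8.37 CPM in WT (log2 fold change 0.73, SE 0.32, adjusted p = 0.481), and Spi1, the gene of PU.1, averaged 81.2 CPM in Cko and 76.4 CPM in WT. The gene that rose was Irf8, a factor of monocyte development, with 22.5 ± 9.53 CPM in Cko and 3.83 ± 1.78 CPM in WT (SD, n = 3 each; log2 fold change 2.58, SE 0.44, adjusted p = 0.0315). That call was lost without Cko replicate 1, 2 or 3 or WT replicate 2 or 3 (adjusted p = 0.0526 to 0.160) and with voom (0.0636).

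The summed markers of other blood cells were higher in the Cko libraries as well, and their part in the result was not tested. The summed eosinophil markers were at 554 to 654 CPM in Cko and 0.624 to 6.37 CPM in WT. Of 9 tested genes 6 were called higher, where 0.407% of all tested genes were. Epx and Ear1 had 0 reads in each WT library, and so had Ear10, which had only 1, 0 and 0 reads in Cko. The 6 called genes, and Prss34, Mcpt8, F13a1 and Igkc of the lists below, were under 1 CPM in every WT library. They passed the low-value filter through the Cko libraries alone. Basophil and mast cell markers summed to 93.9 to 107 CPM in Cko and 13.7 to 18.4 CPM in WT (Prss34 and Mcpt8 of 5 called higher, both of these and Ms4a2 at 0 in WT). Monocyte and macrophage markers summed to 102 to 115 CPM in Cko and 28.7 to 48.9 CPM in WT (F13a1 of 10 called higher, Adgre1 at 0 in WT). B and plasma cell markers summed to 237 to 253 CPM in Cko and 60.8 to 67.7 CPM in WT (Igkc of 8 called higher, and Igkc, Ms4a1 and Iglc1 at 0 in WT). Erythroid markers summed to 65.2 to 78.1 CPM in Cko and 46.0 to 50.7 CPM in WT. Of 6 tested, 0 were called by limma, 0 by voom and 5 had an unadjusted p under 0.05. Limma called 0.699% of all tested genes. The call of F13a1 was lost without Cko replicate 2 or 3, and that of Mcpt8 without Cko replicate 1, 2 or 3. Single markers in these lists were not higher: Cpa3 of mast cells averaged 12.8 CPM in Cko and 12.7 CPM in WT, Cd68 of macrophages 15.0 CPM in Cko and 16.1 CPM in WT, and Cd79b of B cells 45.6 CPM in Cko and 61.0 CPM in WT. Siglecf of eosinophils averaged 1.24 CPM in Cko and 1.38 CPM in WT, with 0, 0 and 180 reads in the WT libraries. Ccr3 of eosinophils overlapped between groups, at 6.38, 1.00 and 0.755 CPM in Cko and 1.81, 0 and 1.35 CPM in WT.

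**Figure D3:**
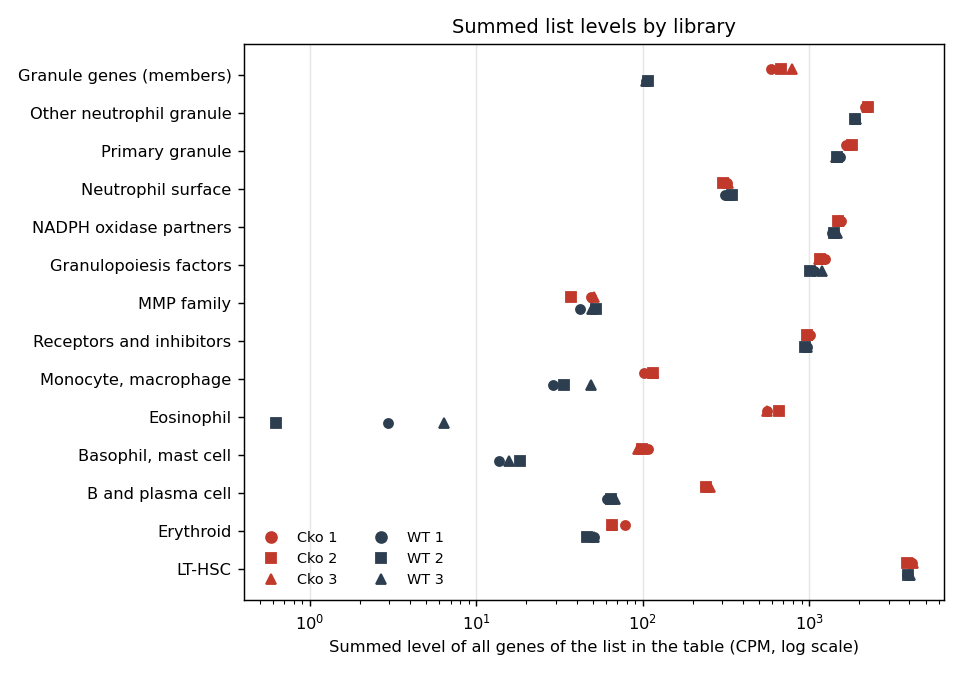
Summed CPM (log axis) of the 10 granule genes and of 13 related lists in each library, 1 symbol per replicate, with Cko above WT in each row. The granule genes sum to 586 to 789 CPM in Cko and 105 to 107 CPM in WT, while LT-HSC genes overlap at 3882 to 4178 CPM in Cko and 3873 to 4049 CPM in WT.

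Some members are neighbours in the genome. Camp (chromosome 9, 109847377 to 109849456, mm10), Ngp (110419808 to 110423012) and Ltf (111019292 to 111042766) lie within 1195 kb, and S100a8 (chromosome 3, 90669071 to 90670034) and S100a9 (90692630 to 90695721) have starts 23.6 kb apart. Between Camp and Ltf, 18 other genes were tested, of which limma called 0 and voom 0, with 2 at an unadjusted p under 0.05. Limma called 0.699% of all tested genes, so 0 of these 18, and 0 of 19 in the next window, are near that share. The median log2 fold change of the 18 was 0.05. The 2 with large fitted values were near 0 in WT: Prss50, a serine protease, had 74, 115 and 146 reads in Cko and 0, 0 and 7 in WT, and Gm10615 had 143, 88 and 170 in Cko and 0, 0 and 22 in WT. Within 500 kb on either side of the calprotectin pair, 19 other genes were tested, with 0 called by limma, 0 by voom and 4 at an unadjusted p under 0.05. The S100 family members S100a6 and S100a4 there had log2 fold changes of 0.46 (SE 0.16) and -0.21 (SE 0.21). The largest fitted value there was 3.37 (SE 1.43, not called) for Slc27a3, a fatty acid transport family gene, with 100, 78 and 60 reads in Cko and 5, 1 and 49 in WT.

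**Figure D4:**
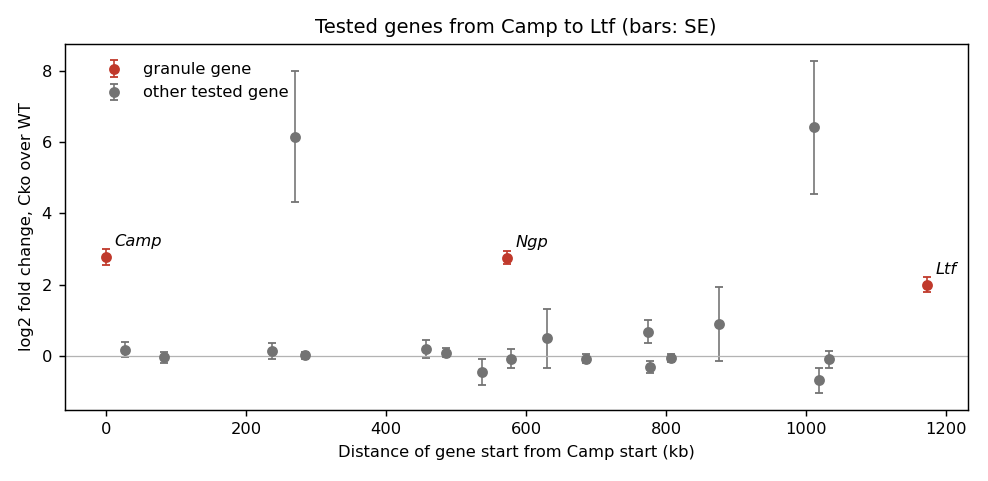
log2 fold change (Cko over WT, bars SE) of the 21 tested genes from Camp to Ltf against distance from the Camp start in kb. Camp, Ngp and Ltf lie at 2.78, 2.76 and 2.00, most of the other genes lie near 0, and the 2 above 6 have wide errors and almost no WT reads.

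Genes outside the list with the most similar course over the 6 libraries were sought by the Euclidean distance between centred log2 values and the mean course of the 10 members. Among 6401 named genes at or above the median level, the 8 nearest were Slfn2, Ehd3, Arhgef3, Itgb2, Plac8, Itgb3, Slc14a1 and Vldlr, at distances of 2.93 to 3.79, against a median of 4.73 for all 6401. The members themselves lay at 1.59 (Camp) to 6.51 (Mmp8). Camp ranked 11 among all tested genes, so 10 genes outside the list, which did not meet the limits on level and name, lay nearer than any member. Mmp9, Cybb and Mmp8 were farther than all 8 named genes, and the mean course was at -2.81 in WT replicate 2, where 3 members had 0 reads. Slfn2, a Schlafen family gene, had 74.9, 66.1 and 87.3 CPM in Cko and 23.1, 21.7 and 39.0 CPM in WT. Ehd3, a gene of endosome recycling, had 94.9, 88.5 and 101 CPM in Cko and 16.5, 39.2 and 51.0 CPM in WT. The 8 were 1.77 to 2.73 times as high in Cko as in WT, less than the smallest ratio among the members, 3.99 for Ltf. These genes were selected for their likeness, which shows nothing about shared function.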

How the data were processed

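The data are 6 RNA-seq libraries, 3 per genotype. The authors deposited 1 table of log2 values per NCBI gene ID, and the tools FastQC, HISAT2, featureCounts and limma and the build mm10 are named per the submitters' processing notes. How strand and multiply mapped reads were treated, and with which versions, is not given in the sources used here. Each value could be read as log2 CPM after 0.5 reads were added, and undoing this gave whole reads for 100.0% of values within 0.01. CPM scale these reads to the implied effective library size, and the library totals were 0.9959 to 1.0042 times that size. RPKM divide CPM by GENCODE exon length. RefSeq (GRCm38.p6) matched 25275 gene IDs, and 1904 were unmatched.

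Genes at 1 CPM or more in at least 3 libraries (13018) were fitted on the deposited log2 scale with limma 3.58.1 in R 4.3.3 (eBayes with trend, no block), with Benjamini-Hochberg adjustment, and called below 0.05. The code was tested on simulated data. Alternatives were log2(CPM + 1), log2(CPM + 5), no filter or one at 5 CPM, quantile normalization, median centring, no trend, robust eBayes, a replicate block, voom on recovered reads, and leaving out each library with the filter repeated or with the genes of all 6 kept. Floors of 3 reads cover counting error only.

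The members and the 14 related lists were chosen with earlier results of these data known. Named genes were the members, Prdm16, up to 5 called members and the most abundant uncalled member of each list, and the 8 nearest by course; other genes were named after their values were seen. Figures used matplotlib 3.10.9 in Python 3.11.15. The mapping left 0 columns unused.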

Additional observations from a re-analysis of the deposited data

How the results depend on the processing

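Of the 10 granule genes 7 were called, and 5 to 8 on leaving out 1 library. Lcn2 and Chil3 were lost without any 1 Cko library (adjusted p = 0.0507 to 0.0893 and 0.0546 to 0.106) and without the trend (0.136 and 0.15), and Chil3 also without WT replicate 3 (0.0587 and 0.0593). Mmp8 was called without the filter, without the trend, with log2(CPM + 1) and without WT replicate 1, Mmp9 with log2(CPM + 1), log2(CPM + 5) and without WT replicate 2, and Cybb with log2(CPM + 5). Over all genes 53 were called higher and 38 lower. The higher count was 83 without the filter, 105 with log2(CPM + 1) and 104 with log2(CPM + 5), and the lower count 59 and 64 with the last 2, 15 without the trend and 23 with a replicate block. Leaving out 1 library gave 20 to 66 higher and 19 to 31 lower. With the genes of all 6 libraries kept, leaving out Cko replicate 1, 2 or 3 gave 28, 22 and 20 higher and 24, 19 and 23 lower, and 11, 6 and 7 related genes higher. Leaving out WT replicate 2 or 3 gave 25 and 22 lower. Of the related genes 19 were higher and 1 lower, 33 higher with log2(CPM + 1) and with log2(CPM + 5), 0 lower without the trend, and 3 to 27 higher and 0 to 1 lower on leaving out 1 library. Same-numbered libraries did not deviate together (correlations -0.01, -0.021 and 0.02), so the numbers do not pair them, and under the replicate block 7 members were called. Uncalled values near 0 changed sign: Bsg (0.02 with quantile normalization, -0.07 to 0.04 on leaving out 1 library, 0.01 without WT replicate 1), Cpa3 (0.0017 with log2(CPM + 5), -0.14 to 0.14 on leaving out 1 library, 0.06 without WT replicate 3), Gata2 (-0.03 to 0.13 on leaving out 1 library, -0.0015 without Cko replicate 1) and Rac2 (-0.0023 with median centring, -0.01 to 0.04). The causes were not tested. The log2 ratio shifts to S100a9, on leaving out 1 library, were -1.04 to -0.57 for Ltf, -0.20 to 0.04 for Camp, -0.22 to 0.08 for Ngp, -0.89 to -0.05 for Lcn2, -0.82 to 0.10 for Chil3 and -0.08 to 0.18 for S100a8. Levels of a few reads, as for Mmp8 in WT, are limited by depth.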
